A study of Mus musculus with 74 samples.

Results

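The genes described here encode claudins, the other membrane and scaffold proteins of the tight junction, and the connexins of gap junctions, measured as RNA in the epithelium of the developing mouse stomach and intestine. They were chosen by symbol and not by any measured value: every counted gene named Cldn, Tjp or Marveld with a number, every connexin (Gja, Gjb, Gjc, Gjd or Gje with a number), and Ocln, F11r and Cgn. This gave 54 of the 24015 gene symbols counted, namely 25 claudins, 4 proteins with a MARVEL domain (Ocln, Marveld1, Marveld2 and Marveld3), 5 plaque and adhesion proteins (among them Tjp1, Tjp3, Cgn and F11r) and 20 connexins.

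RNA was sequenced in 31 libraries of 15 groups, with 3 libraries in 1 group and 2 in each of the other 14. Wild-type CD1 embryos gave forestomach, hindstomach and small intestine at embryonic days 12, 14 and 16 (E12, E14, E16) and small intestine at E18, with the intestinal cells of E12 and E14 described as midgut. The remaining groups carried floxed alleles (Cdx2f/f) of Cdx2, an intestinal transcription factor, on a B6;129 mixed background. The E10-labelled knockout was Cdx2f/f; Shh-Cre small intestine at E16, without drug. The E13-labelled knockout (E16 tissue) and the E15-labelled knockout (E18 tissue) were Cdx2f/f; Villin-Cre, with 5 mg tamoxifen by gavage. The Villin promoter is active in gut epithelium and the Shh promoter in the early gut endoderm. Adult ileum villus cells came from Cdx2f/f; Villin-Cre mice given 1 mg tamoxifen by injection on 5 days and from Cdx2f/f mice given sunflower oil on 5 days. Embryonic knockouts and their wild-type controls thus differed in strain as well as in genotype, and for the E13 and E15 labels in drug too. Adult mice differed in Cre and drug together. In each case these cannot be told apart. Samples up to E16 were trypsin-dissociated and the Epcam-positive (epithelial) cells were sorted, whereas E18 and adult cells came from villi released with EDTA. Nothing in the labels says that 2 libraries of a group came from separate animals, so the p-values measure the spread between these libraries, which may be technical.

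Claudins span the membrane and polymerise into the strands of the tight junction, the seal between neighbouring epithelial cells. Some, such as claudin-4, tighten the seal, whereas claudin-2 and claudin-15 form pores for cations and water and are typical of intestine, and claudin-18 is typical of stomach. Occludin and tricellulin (Marveld2) lie in the same strands, scaffold proteins such as ZO-1 (Tjp1) and cingulin (Cgn) tie them to the cytoskeleton, and connexins form channels through which small molecules pass directly from cell to cell.

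Several libraries have to be read with care. Library totals ran from 5970227 to 62463167 counts (median 21910062), and the 54 genes took 0.126% to 0.448% of them. Levels are given in CPM (counts scaled to a common library size), scaled by TMM separately in embryos and adults and not corrected for gene length, so they compare samples and not genes. Cdx2 measured 17.4, 14.5 and 27.5 CPM in the E10-labelled knockout, against 196 and 218 CPM in E16 wild-type small intestine. In the other knockout groups it went against the label, at 213 and 217 CPM in the E13-labelled libraries, 388 and 371 CPM in the E15-labelled libraries (200 and 206 CPM in E18 wild type) and 472 and 462 CPM in adult knockout libraries (242 and 248 CPM in adult wild type). Reads from outside the deleted exons, which the sources used here do not name, would still be counted, so these groups are called by their labels throughout. The E16 forestomach libraries were the shallowest, and their Epcam level was 137 and 112 CPM, against 841 and 834 CPM at E12. In them 8 mesenchymal markers summed to between 10632 and 12932 CPM and 8 endothelial markers to between 313 and 324 CPM, with none at the counting floor, against at most 82.5 CPM and 27.6 CPM at E12. The same sums were 5704 to 6050 CPM and 177 to 253 CPM in E16 hindstomach and 1273 to 1363 CPM and 67.1 to 73.0 CPM in E16 small intestine. In bulk samples such as these, fewer cells of a type and less RNA per cell cannot be told apart. Paired libraries of the E18 wild-type, E13-labelled and E15-labelled groups differed by chi-square values per degree of freedom of 1.5, 2.4 and 4.8 over genes, against 9.19 to 123 in the other groups, where counting noise alone gives about 1.

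Of the 54 genes, 33 reached a mean of 5 CPM in some group and 21 did not. Cldn17, Cldn24 and Gjd4 had at most 3 counts in every library, and 17 genes were above 3 counts in all 31 libraries, among them Cldn3, Cldn4, Cldn7, Cldn12, Cldn23, Ocln, F11r, Cgn, Tjp1 and Tjp3. After a filter on low counts, 46 genes were tested in embryos, namely 20 claudins, 4 MARVEL genes, 5 plaque and adhesion genes and 17 connexins. In adults 23 were tested, of which 4 were connexins. A gene is said to have risen or fallen, or to be called, when its adjusted p (edgeR quasi-likelihood test, Benjamini-Hochberg over all genes tested) was below 0.05 and its log2 fold change at least 1 in size. Fold changes are on the log2 scale with their standard error.

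**Figure D1:**
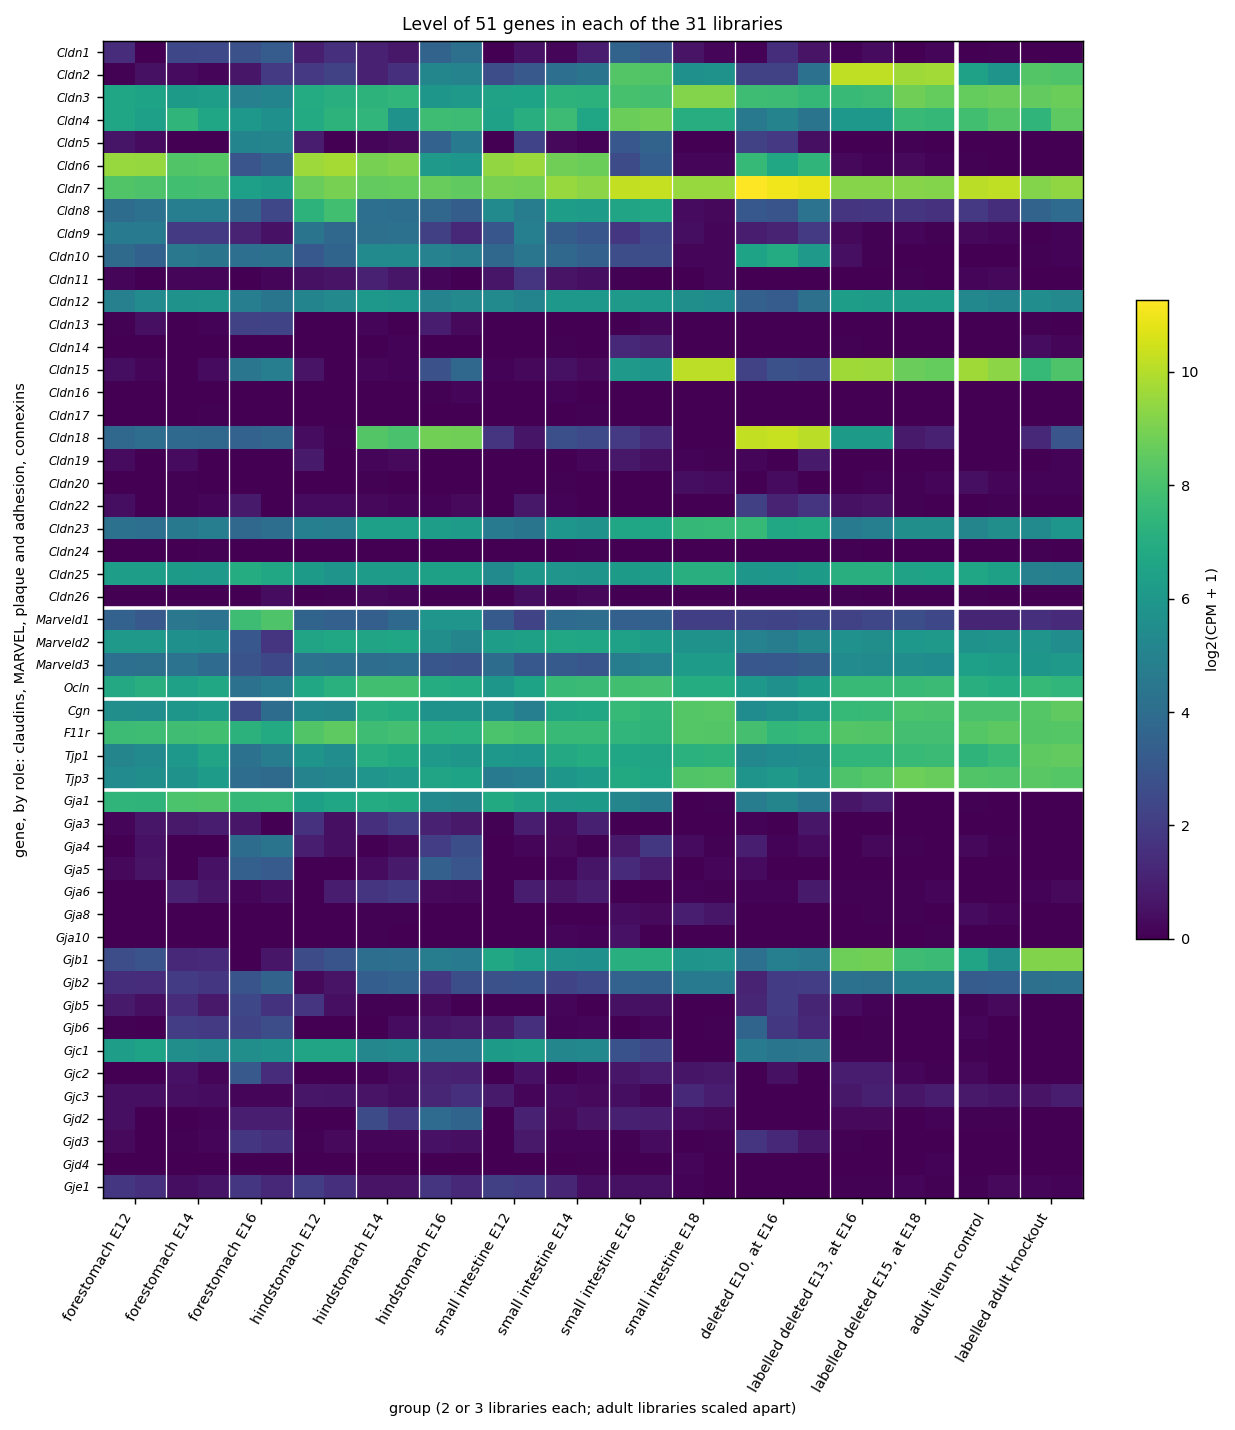
Heat map of log2(CPM + 1) for 51 of the 54 genes (rows, by role) in the 31 RNA libraries (columns, by group). Cldn6 is high in E12 and E14 libraries and near 0 at E18, Cldn18 is high in hindstomach from E14 and in the E10-labelled knockout, and Cldn15 is high at E18, in the E13-labelled knockout and in adults.

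At E12 few of these genes separated the 3 organs. Between forestomach and hindstomach 5 of the 46 tested genes passed (10.9%), with 2 above and 3 below in forestomach, against 7.11% of all 17239 genes, 2.83% higher and 4.28% lower. Forestomach against small intestine gave 7 (15.2%), 2 higher and 5 lower, with 10.1% of all genes called, 5.37% higher and 4.72% lower. Hindstomach against small intestine also gave 7 (15.2%), 3 higher and 4 lower, with 9.28% of all genes called, 5.60% higher and 3.67% lower. Cldn6, a claudin of embryonic epithelia, measured 743 and 705 CPM in forestomach, 774 and 850 CPM in hindstomach and 693 and 755 CPM in small intestine. Forestomach and small intestine overlapped, with both hindstomach libraries slightly above them, and no pair of them was called for Cldn6, Cldn3, Cldn4, Cldn7, Ocln, Tjp1, Tjp3, Cgn or F11r.

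Claudins called between organs at E12 included Cldn18, Cldn8 and Cldn2. Cldn18 measured 12.5 and 15.1 CPM in forestomach, 0.308 and 0.0598 CPM in hindstomach and 2.30 and 0.573 CPM in small intestine. Forestomach was thus above both other organs, with a log2 fold change of 6.20 ± 0.48 over hindstomach (adjusted p = 7.18e-08) and 3.27 ± 0.36 over small intestine. Cldn8, a barrier-forming claudin, was highest in hindstomach, with 154 and 227 CPM against 14.7 and 17.2 CPM in forestomach and 39.2 and 25.3 CPM in small intestine. The hindstomach libraries stood apart from both other organs, by 2.56 ± 0.38 over small intestine and with forestomach at -3.58 ± 0.40 relative to hindstomach. Cldn2 was 0.0352 and 0.414 CPM in forestomach, 2.61 and 3.56 CPM in hindstomach and 5.24 and 7.77 CPM in small intestine. Forestomach was lowest, at -4.68 ± 0.74 relative to small intestine and -7.33 without its replicate 2, which leaves 1 count, while its call against hindstomach was lost without forestomach replicate 1 (-2.88, adjusted p = 0.0577). Cldn11, named after its values were seen, was lower in forestomach, at 0.106 and 0 CPM from 3 counts, than in small intestine, at 0.609 and 2.29 CPM, a ratio of 32.4 with a counting interval of 11.1 to 157 (adjusted p = 0.0436). Its call was lost without forestomach replicate 1 or 2 (adjusted p = 0.0519 and 0.247), without small intestine replicate 2 (0.103), with the 2 groups fitted alone (0.349), with no filter on low counts (0.0634) and by DESeq2 (0.0519).

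Among connexins at E12, Gjb1 (connexin 32, known from liver and gland epithelia) marked the intestine. It measured 107 and 80.7 CPM there, 5.29 and 6.34 CPM in forestomach and 5.17 and 6.58 CPM in hindstomach. The intestinal libraries were clear of both stomach regions, by -4.01 ± 0.25 for forestomach and -3.99 ± 0.25 for hindstomach relative to intestine (adjusted p = 1.71e-09 and 1.99e-09). Gjb2 (connexin 26) was also highest in intestine, at 6.02 and 6.24 CPM, with 1.76 and 1.68 CPM in forestomach and 0.185 and 0.509 CPM in hindstomach. Its call held against hindstomach (-4.12 ± 0.50) when any library was left out, but not against forestomach, where leaving out forestomach replicate 2 gave an adjusted p of 0.0689. Fitted on the 2 groups compared alone instead of all embryonic groups, the counts at E12 fell to 3, 1 and 2 genes. The calls lost in this way included Cldn2 between forestomach and hindstomach (adjusted p = 0.0684), Cldn18, Cldn2 and Gjb2 between forestomach and small intestine (0.147, 0.185 and 0.283), and Cldn18 and Gjb2 between hindstomach and small intestine (0.506 and 0.188).

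Promoter sequence is shown for the claudins on which the comparisons turn, Cldn2 and Cldn15 as intestinal and Cldn18 as gastric claudin, because Cdx2 is a transcription factor and its core motif can be read in them. The 250 bases before each start were taken from RefSeq (GRCm38.p6), with capitals for matches to the CDX core motif ATAAA and to the GATA motif AGATAA on either strand (TTTAT and TTATCT on the reverse). In Cldn18 start 1 the 2 motifs overlap, so the run AGATAAA holds a match to each. Within windows of this length, 37.3% of all 32851 promoters hold ATAAA and 9.99% AGATAA. Of 53 promoters of 38 of the genes described here, 20 and 4 do.
Cldn2 (chrX:139800558-139800807, plus strand): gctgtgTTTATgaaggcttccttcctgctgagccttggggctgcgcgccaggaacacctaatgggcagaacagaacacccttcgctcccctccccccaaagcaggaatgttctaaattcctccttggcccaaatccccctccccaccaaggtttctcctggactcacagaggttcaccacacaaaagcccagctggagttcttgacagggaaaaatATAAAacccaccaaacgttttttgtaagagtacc
Cldn15 (chr5:136967619-136967868, plus strand): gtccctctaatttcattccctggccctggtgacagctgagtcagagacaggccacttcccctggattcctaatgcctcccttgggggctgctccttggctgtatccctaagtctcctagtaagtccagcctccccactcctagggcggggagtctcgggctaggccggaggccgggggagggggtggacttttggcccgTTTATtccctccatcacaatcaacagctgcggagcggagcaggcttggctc
Cldn18 start 1 (chr9:99717268-99717517, minus strand): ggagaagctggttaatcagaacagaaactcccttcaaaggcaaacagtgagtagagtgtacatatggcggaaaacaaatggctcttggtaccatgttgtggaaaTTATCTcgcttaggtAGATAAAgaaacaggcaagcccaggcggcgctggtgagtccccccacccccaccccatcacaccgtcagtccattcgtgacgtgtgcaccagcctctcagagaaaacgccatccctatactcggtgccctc
The matches begin 244 and 34 bases before the start of Cldn2 and 51 before that of Cldn15. In Cldn18 start 1 they begin 146, 131 and 129 bases before it, and a downstream Cldn18 start and the Cldn6 promoter hold neither motif in this window. A match is a description of these letters only, and the counts do not say which Cldn18 start was used.

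In small intestine from E12 to E16, Cldn6 fell while the claudins Cldn15, Cldn2 and Cldn4 and the plaque genes Cgn and Tjp3 rose. The test called 26 of 46 genes (56.5%), 16 higher and 10 lower, against 40% of all genes, 22.4% higher and 17.6% lower. The median log2 fold change was 0.79, against 0.00 over all genes. With the 2 stages fitted alone, 16 genes were called, 13 higher and 3 lower. Summed markers of other cells were higher at E16, from 92.5 to 94.4 CPM at E12 to 1273 to 1363 CPM for mesenchyme, from 19.2 to 25.2 CPM to 217 to 275 CPM for muscle, and from 7.61 to 14.7 CPM to 271 to 272 CPM for immune cells. Red blood cell markers went from 0.0319 to 0.609 CPM to 171 to 175 CPM, with 6 of the 8 near or at 0 in both groups. The part of those cells in these changes was not tested.

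Cldn6 measured 693 and 755 CPM at E12, 448 and 420 CPM at E14, 4.98 and 9.23 CPM at E16 and 0.164 and 0.110 CPM at E18. Its level was lower at each later stage, with no overlap between stages, and it fell by 6.68 ± 0.30 from E12 to E16 (adjusted p = 4.33e-12). Cldn15 went from 0.0676 and 0.191 CPM through 0.408 and 0.237 CPM at E14 to 64.6 and 59.9 CPM at E16 and 1113 in both libraries at E18. E12 was near the counting floor, with 2 and 6 counts, and E14 held 30 and 6 counts. The rise from E12 to E16 was 8.84 ± 0.57. Cldn2 measured 5.24 and 7.77 CPM at E12, 16.4 and 19.1 CPM at E14, 301 and 298 CPM at E16 and 48.7 and 51.8 CPM at E18. It was thus highest at E16, 5.52 ± 0.55 above E12. Cldn4 rose by 2.01 ± 0.41, from 86.1 and 136 CPM to 429 and 465 CPM, Cldn7 by 1.33 ± 0.13, Cldn3 by 1.42 ± 0.12 and Cldn23 by 2.11 ± 0.20. Of these claudins Cldn6 alone fell, and each of the others had E16 libraries above both E12 libraries. Over the 20 claudins tested, 9 were called higher and 4 lower. The lower ones besides Cldn6 were Cldn10, at 12.4 and 20.2 CPM and then 5.28 and 5.4 CPM (-1.61 ± 0.35), Cldn9 and Cldn11. The Cldn10 call was lost with the 2 stages fitted alone (adjusted p = 0.0615). Cldn9 (-2.32 ± 0.64) was not called without E12 replicate 2 (adjusted p = 0.134) or E16 replicate 1 (adjusted p = 0.0615). Cldn11 had 1 count at E16, a ratio of 55.4 with a counting interval of 9.95 to 2189, and was not called without E12 or E16 replicate 2 (adjusted p = 0.0505 and 0.0918) or with the 2 stages alone (0.0742). Cldn1, a barrier-forming claudin, had 0 and 0.446 CPM at E12 and 10.9 and 7.92 CPM at E16, and was called higher, but not with the 2 stages fitted alone (adjusted p = 0.0837). Marveld3, another MARVEL strand protein, rose by 1.34 ± 0.24 but was not called without E12 replicate 2 (0.95) or with the 2 stages alone (adjusted p = 0.0584).

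Ocln rose in the same interval by 1.61 ± 0.19, from 62 and 91.6 CPM to 228 and 240 CPM, and was already at 196 and 202 CPM at E14. Among plaque genes Cgn rose by 2.27 ± 0.27, from 43.5 and 28.4 CPM to 185 and 162 CPM, and Tjp3 by 2.09 ± 0.16, from 22.9 and 27 CPM to 113 and 99.1 CPM. Tjp1 (0.68 ± 0.18) and F11r, the junctional adhesion molecule JAM-A (-0.69 ± 0.14), stayed under the fold limit. The connexins Gja1 (connexin 43, the most widespread connexin) and Gjc1 (connexin 45) moved the other way. Gja1 measured 112 and 88.3 CPM at E12, 66.3 and 69.5 CPM at E14 and 34.3 and 25.8 CPM at E16, a fall by 1.73 ± 0.17. Gjc1 went from 69.4 and 75.1 CPM through 35.0 and 37.1 CPM to 6.19 and 4.42 CPM, a fall by 3.76 ± 0.19. For both genes the libraries of the 3 stages did not overlap.

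**Figure D2:**
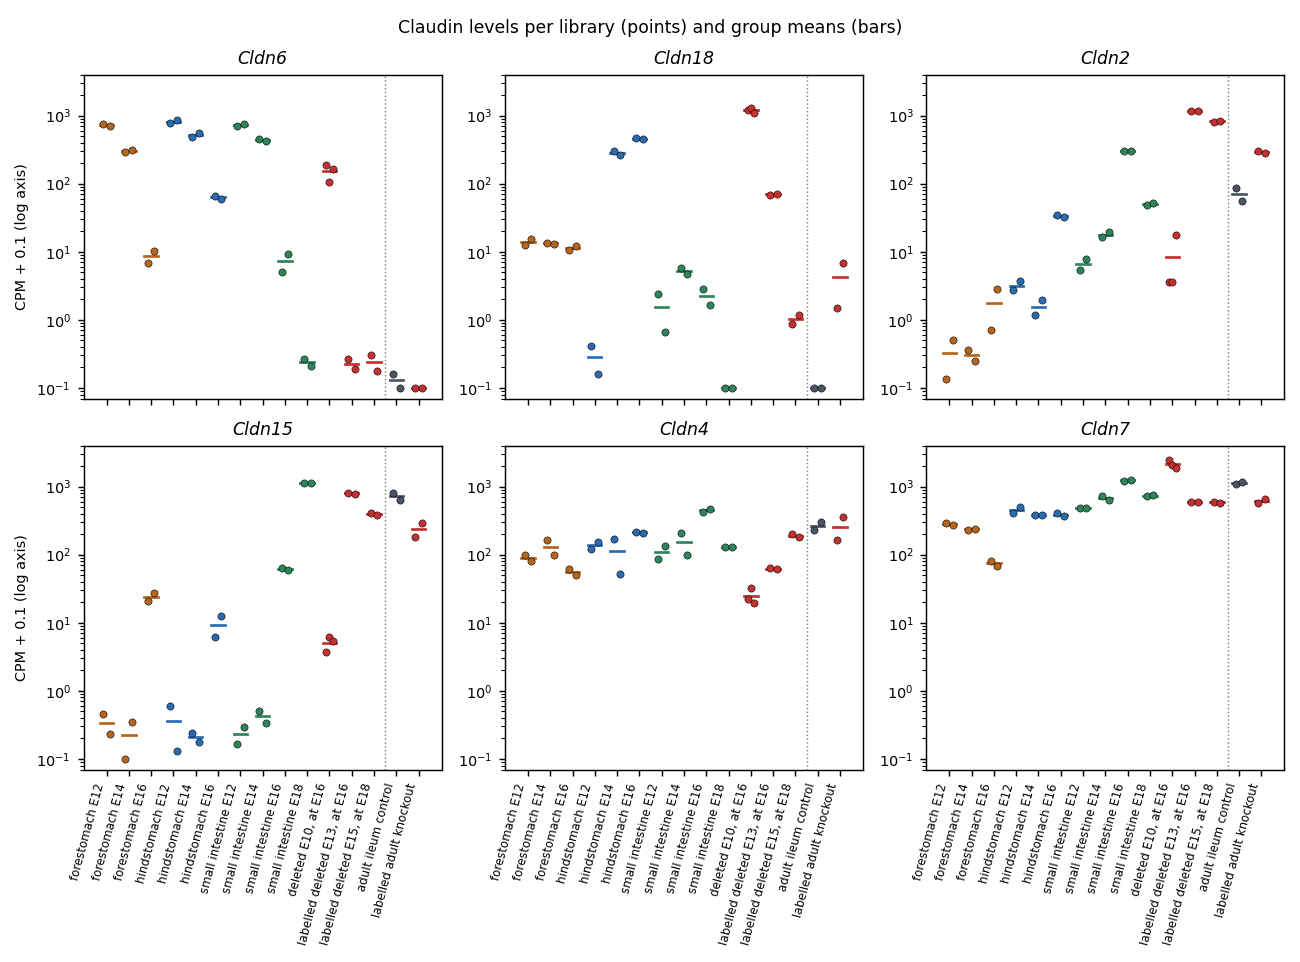
CPM (log axis, 0.1 added) of Cldn6, Cldn18, Cldn2, Cldn15, Cldn4 and Cldn7 in each library, 1 panel a gene. Dots are libraries and bars group means, with forestomach in brown, hindstomach in blue, intestine in green, knockout-labelled groups in red and adult controls in grey, and adults right of the dotted line. The 2 Cldn6 dots of E16 small intestine lie at 4.98 and 9.23 CPM and those of the E10-labelled knockout between 106 and 187 CPM.

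In hindstomach from E12 to E16, 25 of 46 tested genes passed (54.3%), with 15 rising and 10 falling, against 33.7% of all genes, 23.2% higher and 10.5% lower. Their median log2 fold change was 0.34 against 0.11 over all genes. Cldn18 measured 0.308 and 0.0598 CPM at E12, 300 and 262 CPM at E14 and 469 and 446 CPM at E16. The stages did not overlap, and the rise from E12 to E16 was 11.25 ± 0.50 (adjusted p = 1.76e-11). That size rests on 10 and 2 counts at E12, of which the latter is under the floor of 3 counts. Cldn8 went the other way, from 154 and 227 CPM to 16.2 and 15.6 CPM at E14 and 12.2 and 8.96 CPM at E16, a fall by 4.17 ± 0.42. Cldn6 fell by 3.70 ± 0.25, to 65.4 and 59.9 CPM, which was less than in small intestine (difference in log2 fold change 2.98 ± 0.34, adjusted p = 3.4e-06). Cldn2 rose by 3.43 ± 0.53 to 34.7 and 31.8 CPM, Cldn10 by 1.61 ± 0.34 to 31 and 26.4 CPM and Cldn23 by 1.42 ± 0.20. Cldn15 rose by 5.14 ± 0.53 to 6.03 and 12.5 CPM, and by 8.04 without replicate 1 of E12, which leaves 1 count at E12.

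Among the other hindstomach genes, Tjp3 rose by 1.48 ± 0.16 and F11r fell by 1.13 ± 0.14. Gjb1 rose by 2.04 ± 0.23, from 5.17 and 6.58 CPM to 25.2 and 23.0 CPM, while Gja1 fell by 1.34 ± 0.17 and Gjc1 by 2.00 ± 0.17. Some of these genes are known from other cells than epithelium. Gjd2 (connexin 36, of neurons and pancreatic beta cells) had no count in either E12 library, 4.90 and 2.59 CPM at E14 and 14.2 and 11.3 CPM at E16, at least 140-fold higher than the floor of 3 counts per library. Over the same interval 7 neural markers went from a sum of 30.5 to 34.9 CPM to one of 961 to 979 CPM, and 7 pancreatic markers from 1.2 to 1.38 CPM to 1995 to 2284 CPM. Gja5 (connexin 40, of arterial endothelium and heart) had no count at E12 and 9.94 and 6.87 CPM at E16, at least 92.3-fold higher, beside endothelial sums of 9.84 to 31.5 CPM and then 177 to 253 CPM. Mesenchymal markers went from 14.8 to 72.2 CPM to 5704 to 6050 CPM, muscle markers from 17.7 to 19.6 CPM to 1810 to 1830 CPM and immune markers from 0.239 to 4.34 CPM to 743 to 867 CPM. Red blood cell markers went from 0 to 1.32 CPM to 1007 to 1437 CPM, with 6 of the 8 at 0 at both stages. The part of these cells in the hindstomach values was not tested. Floors and counting intervals here cover counting error only, because the reads carry no molecular identifiers and need not be separate molecules.

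In forestomach from E12 to E16, 24 of 46 tested genes were called (52.2%), with 12 rising and 12 falling, beside lower Epcam and Cdh1, the epithelial cadherin. Of 20 claudins 5 fell and 3 rose, of 4 MARVEL genes 3 fell and 1 rose, of 5 plaque and adhesion genes 3 fell and 0 rose, and of 17 connexins 1 fell and 8 rose. Of all genes 38.1% were called, 21.6% higher and 16.5% lower. The median was -0.08, against 0.00 over all genes. Another scaling (RLE) moved that median of all genes by 0.19 and the share of higher genes among those called from 56.6% to 68.6%, so the values below are relative to that shift. Epcam fell by 2.75 ± 0.14 and Cdh1 by 1.28 ± 0.13 in the same comparison. Of the 12 genes that fell, 4 fell by more than Epcam (Cldn6, Cldn9, Gjb1 and Marveld2) and 11 by more than Cdh1.

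Cldn6 measured 743 and 705 CPM at E12, 296 and 314 CPM at E14 and 6.79 and 10.3 CPM at E16, and fell by 6.41 ± 0.30 (adjusted p = 8.01e-12). Marveld2 went from 65.1 and 65.4 CPM to 7.25 and 2.30 CPM, a fall by 3.77 ± 0.29. Ocln fell by 2.54 ± 0.20, from 111 and 135 CPM to 18.2 and 24.2 CPM. Cgn fell by 2.22 ± 0.30, to an uneven 4.63 and 14.8 CPM, Cldn7 by 1.93 ± 0.13 and Cldn3 by 1.62 ± 0.12. Each of these had both E16 libraries below both E12 libraries. Gja1 was 166 and 157 CPM at E12, 271 and 282 CPM at E14 and 182 and 183 CPM at E16, with no call between E12 and E16 (0.18 ± 0.17, adjusted p = 0.385).

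Of the genes that rose in forestomach, Marveld1 went from 10.7 and 7.79 CPM to 216 and 286 CPM (4.77 ± 0.29). Cldn15 went from 0.352 and 0.129 CPM to 20.7 and 27.1 CPM (6.69 ± 0.54). The connexins Gjb2 and Gjb6 (connexin 30), which squamous epithelia such as skin are known to use, were called higher. Gjb2 measured 1.76 and 1.68 CPM at E12 and 6.64 and 10.9 CPM at E16. Gjb6 had 1 count in each E12 library and 4.01 and 5.36 CPM at E16, a ratio of 157 with a counting interval of 43.5 to 1297. A set of 4 squamous markers summed to between 15.8 and 18.5 CPM at E12 and between 2208 and 2690 CPM at E16. Cldn5 and the connexins Gja4 and Gja5, genes of vascular endothelium, were higher beside the endothelial sums given above, with the Gja5 call lost without E12 replicate 1 (adjusted p = 0.0835). Cldn5 measured 0.564 and 0.259 CPM and then 33.3 and 34.4 CPM, and Gja4 0 and 0.466 CPM and then 15 and 19.4 CPM. Muscle markers summed to 4.45 to 6.03 CPM at E12 and 16126 to 20846 CPM at E16, and immune markers to 5.05 to 5.60 CPM and then 614 to 795 CPM. Red blood cell markers went from 2.59 to 2.89 CPM to 13942 to 19001 CPM, with 6 of the 8 at 0 at both stages. These, mesenchymal and endothelial markers moved with every forestomach value at E16, and their part was not tested.

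**Figure D3:**
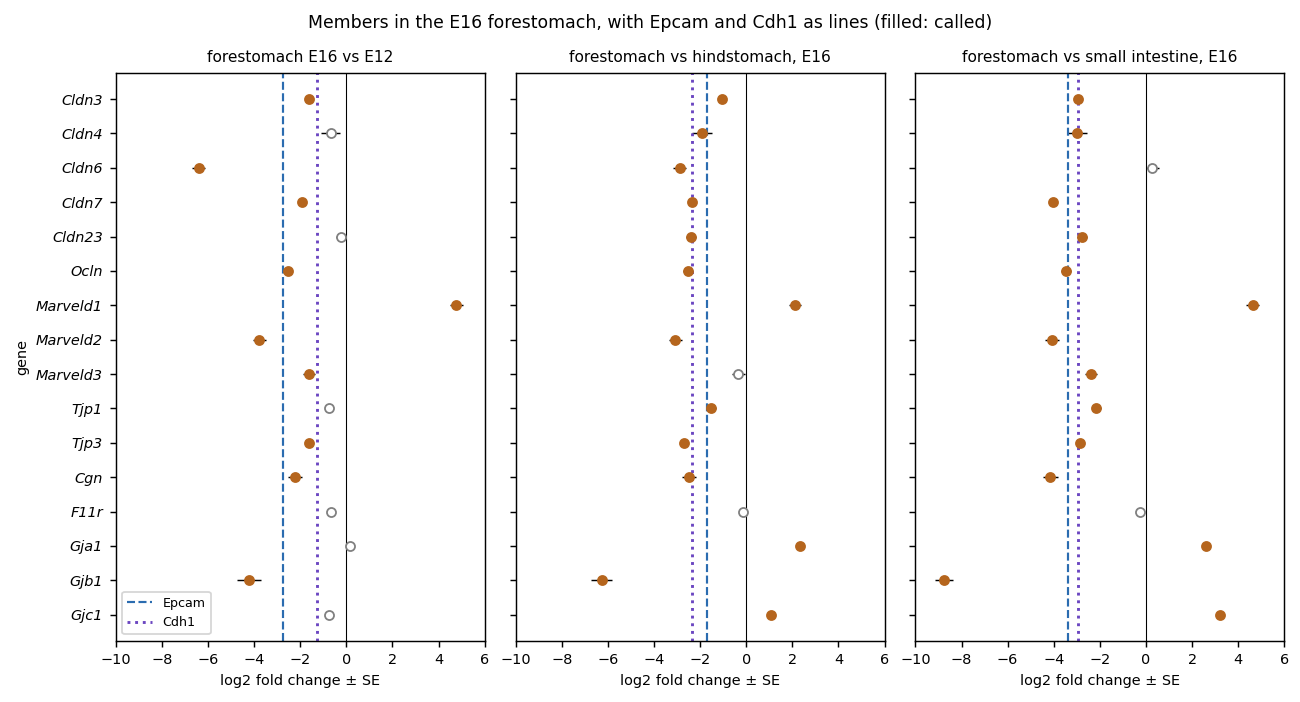
Log2 fold changes with standard errors of 16 genes for forestomach E16 against E12 and for E16 forestomach against hindstomach and small intestine. Filled points are called genes, and the dashed and dotted lines mark the fold changes of Epcam and Cdh1 in the same comparison, which are -2.75 and -1.28 in the first panel, -1.72 and -2.36 in the next and -3.37 and -2.93 in the last.

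At E16 the organs differed in more of these genes. Between hindstomach and small intestine 21 of 46 tested genes passed (45.7%), with 9 above and 12 below in hindstomach, against 25.7% of all genes, 17.5% higher and 8.10% lower. Forestomach against hindstomach gave 21 (45.7%), 6 higher and 15 lower, with 20.1% of all genes called, 6.27% higher and 13.8% lower. Forestomach against small intestine gave 28 (60.9%), 10 higher and 18 lower, with 35.0% of all genes called, 18.6% higher and 16.4% lower. Leaving out replicate 1 of E16 small intestine left 13 calls between hindstomach and small intestine. RLE scaling moved the median of all genes by 0.15 between the stomach regions and by 0.19 between forestomach and small intestine, and the share of higher genes between the stomach regions from 31.2% to 43.5%.

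Hindstomach carried Cldn18 at 469 and 446 CPM, against 2.72 and 1.58 CPM in small intestine, a log2 fold change of 7.72 ± 0.40 (adjusted p = 2.11e-10). Cldn6 (3.15 ± 0.26), Cldn10 (2.43 ± 0.36), Marveld1 (2.53 ± 0.27) and Gjc1 (2.15 ± 0.18) were also higher in hindstomach. Lower there were Cldn2, at 34.7 and 31.8 CPM against 301 and 298 CPM (-3.17 ± 0.49), and Cldn8, at 12.2 and 8.96 CPM against 94.1 and 107 CPM (-3.25 ± 0.40). Cldn15 (-2.74 ± 0.36), Cldn3 (-1.90 ± 0.12), Cldn7 (-1.67 ± 0.13), Marveld3 (-2.05 ± 0.25), Cgn (-1.68 ± 0.27) and Gjb1 (-2.49 ± 0.23) were lower too, each with no overlap between the organs. Epcam was -1.65 ± 0.13 in this comparison, so Cldn7 and Cgn lay within 1 standard error of it. Cldn4 was called lower (-1.07 ± 0.40), but not without any 1 of the 4 libraries (adjusted p from 0.0955 without small intestine replicate 1 to 0.145 without hindstomach replicate 2).

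Forestomach at E16 had the connexins Gja1 and Gjc1 at the highest E16 levels of the 3 organs. Gja1 measured 182 and 183 CPM there, 37.9 and 33.9 CPM in hindstomach and 34.3 and 25.8 CPM in small intestine, which put forestomach 2.35 ± 0.17 and 2.60 ± 0.18 above them. Gjc1 was 3.22 ± 0.18 and Marveld1 4.63 ± 0.29 above small intestine. Gjb1, at 0 and 0.612 CPM, was lowest in forestomach, by -8.76 ± 0.41 relative to small intestine. That value rests on 4 counts in its replicate 2, since replicate 1 had none. Cldn7 (-4.04 ± 0.14), Cgn (-4.15 ± 0.32), Ocln (-3.46 ± 0.21) and Cldn3 (-2.97 ± 0.13) were lower than in small intestine, beside -3.37 ± 0.14 for Epcam and -2.93 ± 0.13 for Cdh1.

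An interaction term tested whether organ differences at E16 departed from those at E12. It was called for 21 genes between hindstomach and small intestine (45.7%), 9 upward and 12 downward, with 20.3% of all genes called, 12.5% upward and 7.85% downward. Between forestomach and hindstomach it was called for 19 (41.3%), 7 upward and 12 downward, with 20.2% of all genes called, 7.38% upward and 12.9% downward. Between forestomach and small intestine it was called for 24 (52.2%), 9 upward and 15 downward, with 30.8% of all genes called, 14.8% upward and 16.1% downward. Under RLE scaling the share of higher genes among those called in the interaction between the stomach regions went from 36.5% to 48.0% over all genes. Cldn18 turned over: it was called higher in forestomach than hindstomach at E12 (6.20) and lower at E16 (-5.34), a change of -11.54 ± 0.59. Its E12 hindstomach value rests on 10 and 2 counts. Cdx2 in those hindstomach libraries was 0.05 ± 0.28 relative to E12 small intestine, and its part was not tested. Relative to small intestine, hindstomach Cldn18 changed by 10.65 ± 0.66, and Cldn8 by -5.81 ± 0.56, from higher at E12 (2.56) to lower at E16 (-3.25). The lower hindstomach Cldn18 at E12 was not called without small intestine replicate 1 (-1.63, adjusted p = 0.0736).

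From E16 to E18 in small intestine, 10 of 20 claudins fell and 2 rose, and 6 of 17 connexins fell and 3 rose. The test called 24 of 46 genes (52.2%), 7 higher and 17 lower, against 42.1% of all genes, 20.1% higher and 22.1% lower. Their median log2 fold change was -1.05 against -0.05 over all genes. Cldn15 rose by 4.16 ± 0.37 to 1113 CPM in both libraries. Cldn3 rose by 1.24 ± 0.12, from 250 and 235 CPM to 570 and 577 CPM, Tjp3 by 1.5 ± 0.15 to 296 and 304 CPM and Marveld3 by 1.37 ± 0.24 to 72.0 and 74.2 CPM. Gjb2 rose by 1.26 ± 0.42, to 25.1 and 24.5 CPM, but leaving out any 1 of the 4 libraries ended its call (adjusted p from 0.0572 without E18 replicate 2 to 0.0767 without E16 replicate 2).

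Among the genes that fell, Cldn8 went from 94.1 and 107 CPM to 0.247 and 0.165 CPM (-8.95 ± 0.62), Cldn6 from 4.98 and 9.23 CPM to 0.164 and 0.110 CPM (-5.69 ± 0.51) and Cldn10 from 5.28 and 5.4 CPM to 0.164 and 0.110 CPM (-5.28 ± 0.59). All 3 ended near the counting floor. Cldn2 fell by 2.57 ± 0.48, Cldn4 by 1.80 ± 0.41 to 128 and 129 CPM, and Gjb1 by 1.26 ± 0.22, from 134 and 137 CPM to 56.5 and 57.0 CPM. Gja1 kept 1 count in the 2 E18 libraries, a ratio of 912 with a counting interval of 164 to 36024. Gjc1 had none, at least 25.8-fold lower than at E16. Cldn5 also had none, at least 44.8-fold lower, beside endothelial markers that summed to 4.36 to 6.09 CPM at E18, with 4 of 8 at the floor. Mesenchymal markers summed to 1.15 to 1.48 CPM at E18, with 6 of 8 at the floor, and the part of these cells was not tested. Stage and isolation method cannot be told apart.

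**Figure D4:**
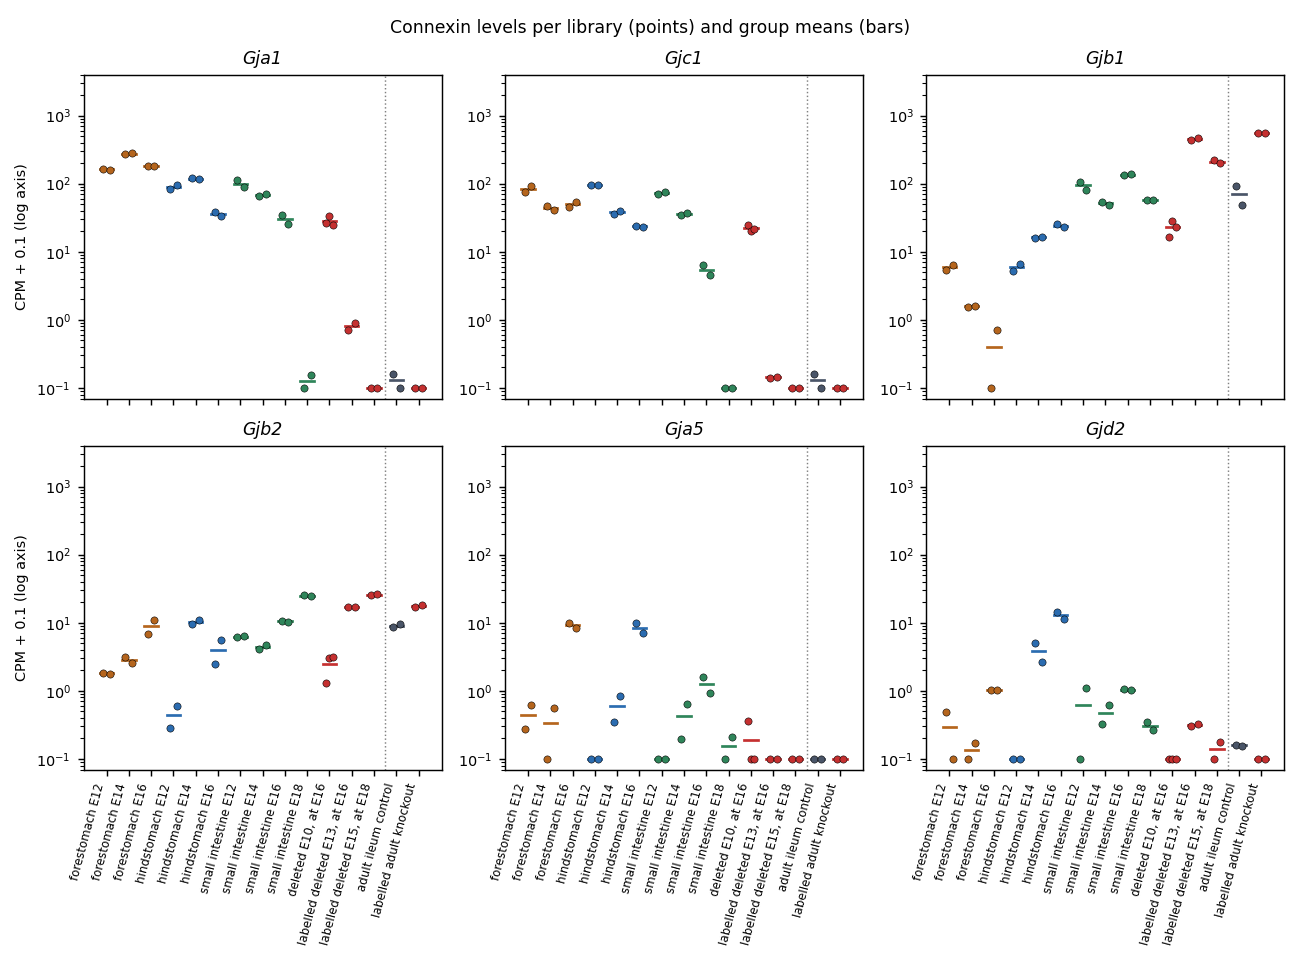
CPM (log axis, 0.1 added) of the connexins Gja1, Gjc1, Gjb1, Gjb2, Gja5 and Gjd2 in each library, drawn as in the plot of claudins. Gja1 in small intestine steps down from 112 and 88.3 CPM at E12 to 0 and 0.0549 CPM at E18, and Gjb1 is at 441 and 471 CPM in the E13-labelled and 551 and 556 CPM in the adult knockout libraries.

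The E10-labelled comparison sets small intestine of the early knockout, with Cdx2 at 14.5 to 27.5 CPM, against wild-type small intestine of another strain. Relative to wild-type E16 small intestine, Cldn18, Cldn6 and Cldn10 were among the genes called higher, and Cldn2, Cldn4, Cldn15, Ocln and Cgn among those called lower. The test called 27 of 46 genes (58.7%), 8 higher and 19 lower, a share near that of all genes, which was 51.5%, 23.9% higher and 27.6% lower. The median was -1.27, against -0.10 over all genes. Of 20 claudins 4 were higher and 7 lower, all 4 MARVEL genes were lower, and 2 of 5 plaque and adhesion genes were lower.

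Cldn18 measured 1199, 1282 and 1083 CPM in the knockout libraries, against 2.72 and 1.58 CPM, and was 9.10 ± 0.42 higher (adjusted p = 3.36e-12). Cldn6 measured 187, 106 and 164 CPM against 4.98 and 9.23 CPM (4.43 ± 0.26), and Cldn10 90.3, 121 and 65.3 CPM against 5.28 and 5.4 CPM (4.11 ± 0.37). Cldn2 measured 3.47, 3.52 and 17.8 CPM against 301 and 298 CPM (-5.29 ± 0.47). For all 4 the groups were far apart, although knockout replicate 3 was above the other two for Cldn2. Cldn4 measured 22.6, 31.9 and 19.3 CPM against 429 and 465 CPM (-4.18 ± 0.39), and Cldn15 3.67, 6.04 and 5.31 CPM against 64.6 and 59.9 CPM (-3.65 ± 0.34). Cldn8 (-3.24 ± 0.35) and Cldn12 (-2.47 ± 0.22), a claudin without the usual scaffold-binding tail, were lower, as was Cldn1, at 0.0668, 1.76 and 0.494 CPM against 10.9 and 7.92 CPM, whose call was lost without wild-type replicate 1 or knockout replicate 1 or 3 (adjusted p = 0.0645, 0.0679 and 0.0541). Cldn7 was 2456, 2093 and 1879 CPM against 1217 and 1240 CPM, above in every library but under the fold limit (0.80 ± 0.12). Cldn3 was not called (-0.26 ± 0.10).

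Ocln measured 63.5, 48.6 and 69.4 CPM in the E10-labelled knockout, against 228 and 240 CPM (-1.95 ± 0.17). Marveld3 (-1.84 ± 0.22), Marveld2 (-1.41 ± 0.21), Cgn (-1.67 ± 0.24) and Tjp1 (-1.2 ± 0.16) were lower as well, and Tjp3 (-0.87 ± 0.14) stayed under the fold limit. Cdh1 was -1.44 ± 0.11 and Epcam 0.73 ± 0.12 in this comparison. Among connexins, Gjb1 was lower, at 16.4, 28.3 and 23.2 CPM against 134 and 137 CPM (-2.59 ± 0.20), and Gjb2 was lower by -2.13 ± 0.40. Gjc1 measured 24.2, 20.0 and 21.4 CPM against 6.19 and 4.42 CPM (2.04 ± 0.17). It stood above wild type in every knockout library. Gjb6 measured 11.4, 2.52 and 1.36 CPM against 3 wild-type counts. The ratio of 64.6, with a counting interval of 22.1 to 313, leans on knockout replicate 1. The 4 squamous markers summed to 295 to 1248 CPM in these libraries and to 0.109 to 0.503 CPM in wild type, and 4 stomach gland markers to 3094 to 7680 CPM and 9.39 to 10 CPM. Mesenchymal markers summed to 41.9 to 76.3 CPM in knockout against 1273 to 1363 CPM, and red blood cell markers to 1.61 to 2.68 CPM against 171 to 175 CPM. The 5 intestinal epithelium markers summed to 970 to 1690 CPM against 4222 to 4279 CPM. The part of all these cells in the junction genes was not tested.

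Against wild-type E16 hindstomach, the same knockout libraries had 22 of 46 tested genes called (47.8%), 9 higher and 13 lower, against 56.3% of all genes, 21.6% higher and 34.6% lower. The median was -0.41, against -0.49 over all genes, and RLE scaling moved the latter by 0.15. Cldn18 was higher than in hindstomach, 1199, 1282 and 1083 CPM against 469 and 446 CPM (1.38 ± 0.27). Cldn7 (2.48 ± 0.13), Cldn3 (1.64 ± 0.11), Cldn10 (1.68 ± 0.32) and Cldn6 (1.28 ± 0.22) were higher too. Epcam was 2.38 ± 0.13 higher in the same comparison. Cldn4 (-3.11 ± 0.38), Cldn12 (-1.61 ± 0.22) and Marveld1 (-3.80 ± 0.25) were lower, and Cldn2 was -2.12 ± 0.46, and -3.25 without knockout replicate 3. Gjd2 and Gja5, high in E16 hindstomach, were at 0 in all 3 and in 2 of the 3 knockout libraries, and mesenchymal markers summed to 41.9 to 76.3 CPM there. Neural markers summed to 84.2 to 124 CPM in knockout against 961 to 979 CPM in hindstomach, pancreatic markers to 53.2 to 643 CPM against 1995 to 2284 CPM, endothelial markers to 59.0 to 61.1 CPM against 177 to 253 CPM and stomach gland markers to 3094 to 7680 CPM against 446 to 456 CPM. Muscle, immune and red blood cell markers were lower in knockout too, and the part of all these cells was not tested. For Gjb1 (-0.10 ± 0.20) and Cgn (0.01 ± 0.24) no difference was detected, at adjusted p = 0.692 and 0.989.

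The E13-labelled knockout was compared with the same wild-type E16 libraries and therefore shares its controls with the E10-labelled comparison. The test called 23 of 46 genes (50%), 7 higher and 16 lower, against 39.5% of all genes, 18.7% higher and 20.8% lower. Their median log2 fold change was -0.88 against -0.05 over all genes. Cldn18 measured 69.0 and 69.9 CPM against 2.72 and 1.58 CPM (5.00 ± 0.37). Beside it the 4 stomach gland markers summed to 4050 to 4159 CPM against 9.39 to 10 CPM, and the 6 immune markers to 1826 to 1888 CPM against 271 to 272 CPM, and their part was not tested. Cldn15 was higher, at 806 and 779 CPM against 64.6 and 59.9 CPM (3.67 ± 0.36), and Cldn2 too, at 1180 and 1161 CPM against 301 and 298 CPM (1.97 ± 0.46). Gjb1 was higher by 1.75 ± 0.22, at 441 and 471 CPM, and Tjp3 by 1.51 ± 0.15. In each case both knockout libraries were above both wild-type libraries.

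Lower in the E13-labelled libraries were Cldn6, at 0.165 and 0.0892 CPM (-5.73 ± 0.46), Cldn8, at 2.23 and 2.41 CPM (-5.44 ± 0.46), and Cldn4, at 62.6 and 62.3 CPM (-2.84 ± 0.42). Cldn23 was lower, at 23.1 and 27.9 CPM against 96.0 and 97.2 CPM (-1.92 ± 0.20), and Cldn7 by -1.03 ± 0.13, a value just under the fold limit with the 2 groups fitted alone. Cldn1 and Cldn10 were also lower, both under 1 CPM in either knockout library, with the Cldn1 call lost without knockout replicate 1 (adjusted p = 0.0773). Gja1 measured 0.620 and 0.803 CPM against 34.3 and 25.8 CPM (-5.39 ± 0.23), and Gjc1 kept 2 counts in the 2 libraries, a ratio of 124 with a counting interval of 34.2 to 1021. Cldn5 had no count, at least 71.5-fold lower. Mesenchymal markers summed to 59.3 to 59.5 CPM and endothelial markers to 9.55 to 9.71 CPM in these libraries, below the wild-type sums given above, and the part of those cells was not tested. Wild-type E18 intestine, 2 days older, held values of 0.164 and 0.110 CPM for Cldn6, 0.247 and 0.165 CPM for Cldn8, 0 and 0.0549 CPM for Gja1 and 1113 CPM in both libraries for Cldn15. For other genes E18 wild type departed from E16 wild type in the opposite direction to the E13-labelled libraries. These were Cldn2 (48.7 and 51.8 CPM at E18), Gjb1 (56.5 and 57.0 CPM), Cldn23 (180 and 183 CPM) and Cldn18 (no count). All these values are set side by side and were not compared in a test.

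Set directly against each other, the E10-labelled and E13-labelled libraries had 29 of 46 tested genes called (63.0%), 15 higher and 14 lower in the E10-labelled knockout, against 57.4% of all genes, 28.1% higher and 29.3% lower. For 6 genes the 2 knockout labels lay on opposite sides of wild type, all 6 called in both comparisons. Cldn6 was 4.43 and -5.73 relative to wild type for the E10 and E13 label, Cldn10 4.11 and -4.61, and Gjc1 2.04 and -6.79. Cldn2 was -5.29 and 1.97, Cldn15 -3.65 and 3.67, and Gjb1 -2.59 and 1.75. The direct differences between the knockouts were 10.16 ± 0.41 for Cldn6 (adjusted p = 7.96e-14), 8.72 ± 0.51 for Cldn10, -7.25 ± 0.51 for Cldn2, -7.32 ± 0.37 for Cldn15 and -4.34 ± 0.21 for Gjb1. The E10-labelled libraries thus had Cldn6, Cldn10 and Gjc1 above, and Cldn2, Cldn15 and Gjb1 below, those labelled E13. Ocln (-1.68 ± 0.17), Tjp1 (-1.99 ± 0.16), Tjp3 (-2.38 ± 0.14) and Cgn (-1.80 ± 0.24) were lower in the E10-labelled knockout. The 2 groups differ in Cre driver, drug and labelled time together.

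The E15-labelled knockout at E18 had 7 of 46 tested genes called against E18 wild type (15.2%), 4 higher and 3 lower, a share close to the 17.5% of all genes, of which 7.79% were higher and 9.70% lower. Both medians were 0.00. Cldn2 measured 807 and 834 CPM against 48.7 and 51.8 CPM (4.03 ± 0.51, adjusted p = 6.43e-06), and Gjb1 219 and 201 CPM against 56.5 and 57.0 CPM (1.89 ± 0.22). Cldn8 was higher at low levels, 2.33 and 2.06 CPM against 0.247 and 0.165 CPM (3.43 ± 0.72). Cldn18 measured 0.775 and 1.07 CPM against no count, at least 4.49-fold higher. Cldn15 was lower, at 409 and 382 CPM against 1113 CPM in both wild-type libraries (-1.49 ± 0.33). Cldn23 measured 45.7 and 46.3 CPM against 180 and 183 CPM (-1.98 ± 0.20). These calls held with any library left out. Ocln (0.68 ± 0.18), Tjp1 (0.40 ± 0.17), Cgn (-0.27 ± 0.26) and Cldn7 (-0.33 ± 0.12) were not called. Stomach gland markers summed to 34.9 to 36.9 CPM in knockout against 1.48 to 1.54 CPM, and immune markers to 149 to 150 CPM against 849 to 891 CPM, and their part in these values was not tested.

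In adult ileum villus, 8 of 23 tested genes were called between knockout and wild type (34.8%), 5 higher and 3 lower in knockout, against 20.4% of 12444 genes, 8.41% higher and 12% lower. Gjb1 measured 551 and 556 CPM against 93.4 and 48.3 CPM (2.96 ± 0.35, adjusted p = 0.00631), and Cldn2 301 and 282 CPM against 86.4 and 56.4 CPM (2.03 ± 0.23). Cldn8 measured 11.1 and 14.1 CPM against 2.69 and 1.81 CPM (2.48 ± 0.29). These calls held with any library left out, and the knockout libraries lay above both wild-type libraries. Cldn18 had 1.41 and 6.78 CPM against no count, at least 22.9-fold higher, but was not called without knockout replicate 2 (adjusted p = 0.0735) or without wild-type replicate 1 or 2 (0.0712 and 0.0793). Tjp1 measured 355 and 378 CPM against 161 and 200 CPM (1.02 ± 0.15), and lost its call without wild-type replicate 1 (0.88) or knockout replicate 1 or 2 (adjusted p = 0.0549 and 0.0569). Stomach gland markers summed to 19.7 to 23.4 CPM in knockout against 0.0567 to 0.438 CPM, and immune markers to 321 CPM in both knockout libraries against 680 to 2208 CPM. Neural markers summed to 225 to 330 CPM against 5.44 to 11.2 CPM, with 5 of the 7 near or at 0 in both groups. The part of these cells was not tested.

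Lower in adult knockout was Cldn15, at 183 and 287 CPM against 808 and 632 CPM (-1.62 ± 0.27). It was not called without knockout replicate 1 (-1.30, adjusted p = 0.0594). Leaving out either knockout library left 5 genes called. A row named Cldn25 was also lower, at 29.4 and 28.0 CPM against 96.4 and 83.2 CPM (-1.64 ± 0.13), but this older symbol may stand for another locus. Cldn2, Cldn8, Cldn18 and Gjb1 were called higher and Cldn15 lower both here and in the E15-labelled comparison, which shares no library with it. The overlap of the comparisons was not tested. Cldn7 (-0.88 ± 0.15), Cldn3 (-0.01 ± 0.13), Cldn4 (-0.05 ± 0.40) and Ocln (0.48 ± 0.12) were not called.

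**Figure D5:**
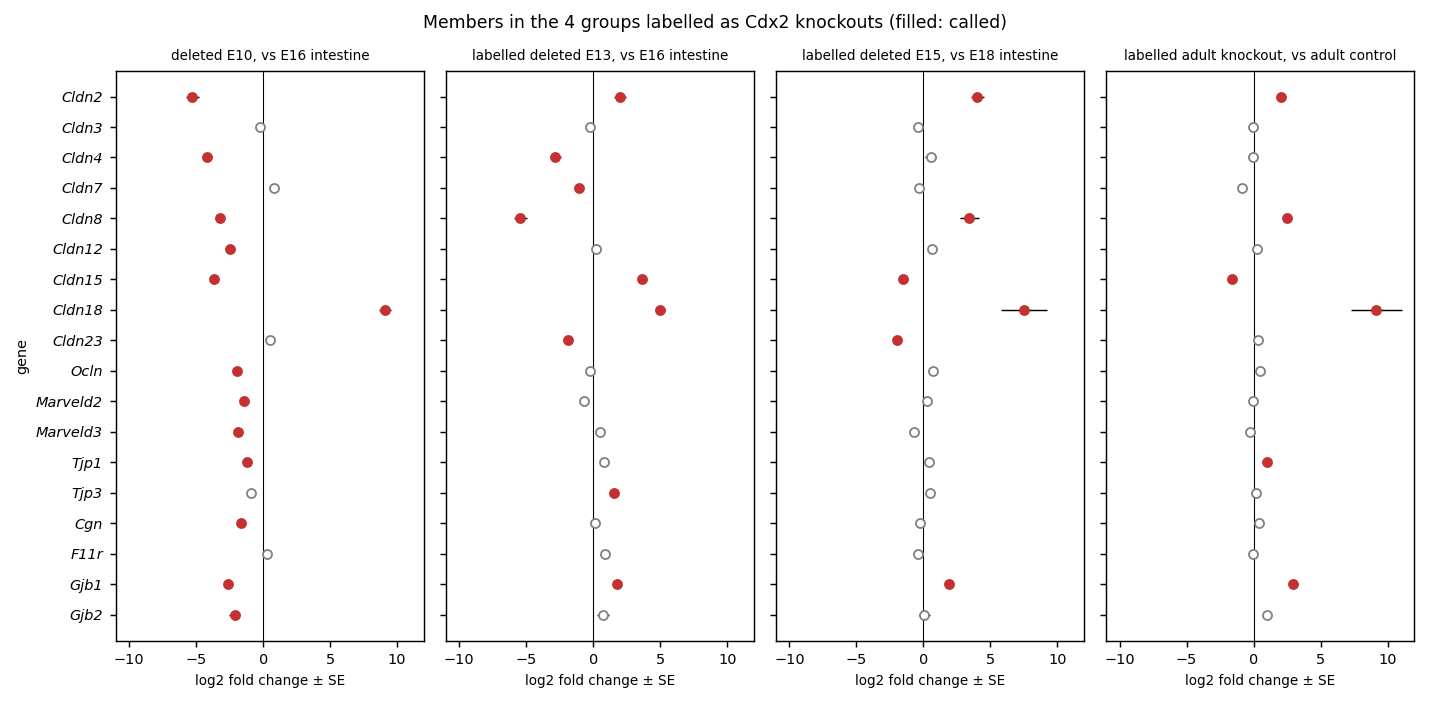
Log2 fold changes with standard errors of 18 genes in the knockout-labelled groups against their wild-type controls: E10-labelled and E13-labelled at E16, E15-labelled at E18, and adult. Filled points are called. Cldn18 lies right of 0 in all 4 panels, and Cldn2 and Gjb1 lie left of 0 for the E10 label and right of it in the other 3.

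Other junction genes gave a setting for these counts. A list of 49 genes of other junction proteins (adherens junction proteins, nectins, other junctional adhesion molecules, polarity proteins, angiomotins and pannexins) had 48 members tested in embryos. From E12 to E16 in small intestine 12 of them were higher and 10 lower, where 40% of all genes were called, and in the E10-labelled knockout 11 were higher and 17 lower than in wild-type E16 intestine, where 51.5% were. The E13-labelled comparison gave 13 higher and 12 lower, beside 39.5% of all genes. The E15-labelled one gave 7 and 5, beside 17.5%, and the adult one 3 and 6 of 40, beside 20.4%. Cdh17, the liver-intestine cadherin, averaged 12.9 CPM at E12 and 963 CPM at E16 in small intestine (6.22 ± 0.98), 20.5 CPM in the E10-labelled knockout and 1253 CPM in the E13-labelled one. It was thus lower for the E10 label (-5.57 ± 0.81) and not called for the E13 label (0.38 ± 0.78). Panx1, a pannexin channel gene, was lower in the E15-labelled knockout (-2.39 ± 0.21) and in adult knockout (-2.29 ± 0.14). Cgnl1 (paracingulin), an adaptor related to Cgn, was higher for the E10 label (2.86 ± 0.34), the E13 label (2.28 ± 0.34), the E15 label (4.68 ± 0.41) and in adult knockout (2.47 ± 0.48), whereas Cgn itself was lower for the E10 label and not called for the others.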

How the data were processed

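The authors deposited whole-number read counts per gene for all RNA libraries in 1 table, and per the submitters' processing notes STAR 2.5.3a, HTSeq and the mm9 build were used. Library kits differed, SMARTer-Seq v4 for embryos and TruSeq for adults, per the labels' protocols. The adult columns carry blank cells that shift later rows; closing them up raised the rank correlation of adult with E18 wild-type libraries from 0.280-0.295 to 0.929-0.962 over 1676 genes between the blanks and from 0.471-0.493 to 0.956-0.974 over 1730 genes below, and of the genes described only those named Tjp lie after the first blank. Counts of called genes cover all tested genes of the set, of which 3 genes are not reported here by name. Counts in 2 columns matched no sample and were not used. The 38 ATAC and 5 ChIP samples were not analysed here.

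The count test was the quasi-likelihood test of edgeR 4.0.16, run in R 4.3.3 (TMM scaling, filterByExpr with a minimum count of 10), on 27 embryonic libraries of 13 groups in one fit (17239 genes) and 4 adult libraries apart (12444 genes), with Benjamini-Hochberg adjustment over all genes. Standard errors were derived from the F statistic, as the size of the log2 change over its root. E14 libraries were in the fit, and their levels are given without a test. The method was tested on simulated data. The rule by symbol used no measured value, but it and the lists were set with earlier results of these data known. A fixed set of 25 genes is always described, and for each comparison up to 6 called genes per direction were added, with the largest fold change, groups that do not overlap and a mean of at least 5 CPM. Alternatives were RLE scaling, no filter, DESeq2 1.42.0, the compared groups alone, a replicate block, all 31 libraries in one fit and leaving out each library. Over all genes, same-numbered libraries did not deviate together, and the main fit has no block.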

Additional observations from a re-analysis of the deposited data

Results flagged for a closer look

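Differences between organs changed from E12 to E16, by a test of the change itself, for 19 genes between forestomach and hindstomach, 24 between forestomach and small intestine and 21 between hindstomach and small intestine. Of all genes 20.2%, 30.8% and 20.3% changed in this way. In the following 4 cases the organ difference was called at both stages with opposite signs. Cldn18 changed by -11.54 between forestomach and hindstomach (adjusted p = 2.02e-10) and by 10.65 between hindstomach and small intestine (3.75e-09). Both values rest on 10 and 2 counts in E12 hindstomach, where Cdx2 measured 116 and 160 CPM. Cldn8 changed by -5.81 between hindstomach and small intestine (4.26e-07). Gjb6 changed by 11.01 between forestomach and small intestine (0.0005), a fitted value from 2 counts in forestomach at E12 and 3 in small intestine at E16, and no bound. Its E12 call was lost without forestomach replicate 1 (adjusted p = 0.11) or 2 (0.159) and with the compared groups fitted alone (0.212).

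The E10-labelled and E13-labelled knockouts differed in 29 of 46 genes (63%), beside 57.4% of all genes, and 6 lay on opposite sides of wild type. Their direct differences (E10 minus E13 label) were 10.16 for Cldn6 (adjusted p = 7.96e-14), 8.83 for Gjc1 (1.11e-13), 8.72 for Cldn10 (2.86e-11), -7.32 for Cldn15 (1.9e-12), -7.25 for Cldn2 (1.57e-10) and -4.34 for Gjb1 (9.08e-13). The Gjc1 value rests on 2 counts in the E13-labelled libraries, a ratio of 510 with a counting interval of 141 to 4208.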

How the results depend on the processing

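Of 200 recounts of called genes under other settings, 190 stayed within 1.5 times the main count, and no called fold change among 6825 recomputed ones changed sign, while 226 lost and 85 gained a call. Fitting the compared groups alone gave 3 genes for forestomach against hindstomach at E12, 1 for forestomach against small intestine at E12, 2 for hindstomach against small intestine at E12 and 16 for small intestine E16 against E12. With each library left out in turn, counts ran from 4 to 9 for forestomach against small intestine at E12 (4 without forestomach replicate 1 or 2), from 4 to 10 for hindstomach against small intestine at E12 (4 without hindstomach replicate 1), from 13 to 15 for hindstomach against small intestine at E16 (13 without small intestine replicate 1) and from 5 to 8 in adults (5 without knockout replicate 1 or 2). Deviations of same-numbered libraries correlated over 0.1 in 0 of 78 embryonic pairs of groups (median 0.00176). Such a correlation over all genes cannot tell whether they share a litter or batch. The replicate block gave 27 genes for the E10-labelled knockout against small intestine, 19 against hindstomach, 21 for the E13-labelled, 7 for the E15-labelled and 8 for the adult comparison, where the correlation was -0.152 and the crossed pairing, chosen after seeing the data, also gave 8. Leaving the E16 forestomach libraries out of the fit, likewise chosen after seeing the data, ended 6 calls and added 1 among 455 values. Counting depth limits genes under the floor of 3 counts, which was 0.0408 to 0.463 CPM.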

Other observations

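Cldn4 differed between the 2 libraries of each organ at E14, at 162 and 100 CPM in forestomach, 172 and 52.5 CPM in hindstomach and 210 and 99.7 CPM in small intestine, with replicate 1 above replicate 2 in all 3 organs. The same pairs were close for Cldn7, at 230 and 242, 378 and 388, and 728 and 632 CPM. In adult knockout libraries Cldn4 measured 163 and 352 CPM.

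Among the genes that stayed low, Cldn14 had 27 and 22 counts in wild-type E16 small intestine and at most 7 in any other library. Cldn13 had 24 and 26 counts in E16 forestomach and 20 and 5 in E16 hindstomach. Gje1 had 61 to 103 counts in the 6 libraries of E12 and at most 4 in E18, knockout-labelled and adult libraries.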
